A study of Populus euphratica with 12 samples.

Results

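Broad leaves were compared with narrow leaves of *Populus euphratica*, a desert poplar that bears differently shaped leaves at different ages (heterophylly). The broad pool held the 6 libraries of the ovate (Ov1 to Ov3) and broad-ovate (Bo1 to Bo3) groups, and the narrow pool held the 6 libraries of the linear (Li1 to Li3) and lanceolate (La1 to La3) groups. All RNAs with a mean of at least 0.5 FPKM (fragments scaled to transcript length and to library size) over the 12 libraries were members. These were 32309 of 49676 mRNAs and 1391 of 4460 long noncoding RNAs (lncRNAs), 33700 of 54136 RNAs in all. At the edge of this limit, XM_011029184.1 was inside with a mean of 0.50032 FPKM and XM_011005394.1 was outside with 0.49992 FPKM.

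The study sequenced total RNA depleted of ribosomal RNA from the second juvenile leaf of buds in leaf expansion, 3 libraries in each leaf group. Trees were 8 to 12 years old for Ov and over 20 years for Bo, against 0 to 3 years for Li and 4 to 6 years for La. Leaf breadth and tree age therefore cannot be told apart in any value given here. The libraries are described as biological replicates, and all groups were sampled at Alar in 1 month. What libraries of the same number share beyond that is not given in the sources used here.

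Leaf breadth is set while the young blade still grows. The YABBY, KANADI and related factors mark the upper and lower sides of a leaf, and growth-regulating, TCP and KNOX factors set where and how long cells divide. Plants also pass from a juvenile to an adult phase, in which many SPL factors (squamosa promoter-binding-like) become more abundant as microRNA156 declines, as worked out chiefly in *Arabidopsis*. MADS-box factors such as SVP and SOC1 act later, in the timing of flowering.

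No single mRNA passed the test between the pools. With limma on log2(FPKM + 1), 0 of 32309 mRNAs (0.0%) had an adjusted p under 0.05, and the smallest adjusted p was 0.462. Before adjustment, 2195 mRNAs were higher in broad leaves with p under 0.05 (6.79%) and 1073 lower (3.32%), so 67.2% of the 3268 were higher. After each library was scaled to its upper quartile, 53.6% of 3180 such mRNAs were higher in broad leaves. The excess of higher mRNAs depended on the scaling. The median change over all mRNAs was 0.03 on the log2 scale, and 0.00 after scaling. The comparison sets the pools against a spread that includes the differences between Li and La and between Ov and Bo.

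Library totals gave no separation of the pools. The mRNA values summed to 671282 to 746972 FPKM in broad libraries and to 713742 to 770979 FPKM in narrow libraries. Between 46517 and 47043 mRNAs were above 0 in broad libraries, against 46457 to 46899 in narrow libraries. Over 5 such totals the smallest exact permutation p (two-sided) was 0.06926, for the number of lncRNAs above 0, and its adjusted value was 0.2273. The libraries carried leaf RNA, as all 31 genes of a list of nuclear photosynthesis genes reached 0.5 FPKM. Of 8 flower-organ symbols, CRC, DYT1, INO, MS1 and TDF1 stayed under 0.5 FPKM in all libraries, and 3 reached it. The list summed to 49.7 to 103 FPKM in broad libraries and 50.0 to 106 FPKM in narrow libraries. Nearly all of this came from the 2 tested transcripts, under the symbols SEP1 and SEP2, with 49.6 to 100 FPKM in broad and 49.9 to 106 FPKM in narrow libraries. The product of SEP1 is a chloroplast stress enhanced protein, so the sum does not measure flower-organ RNA. It cannot show whether such RNA was present or absent.

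A description without a test is how many mRNAs separated the pools completely. In 110 mRNAs (0.34% of those tested) each broad library lay above each narrow one, and in 38 (0.118%) each lay below. Neither share was set against other groupings of the 12 libraries. Separation alone therefore does not mark an mRNA as a trait of broad or narrow leaves. After upper-quartile scaling these numbers were 76 and 55, so the share of separated mRNAs that were higher in broad leaves was 58.0% in place of 74.3%. Of the 148 mRNAs, 95 still separated the pools after scaling, 62 of the higher and 33 of the lower ones. Of the separated transcripts described below, LOC105121999 and the SPL2 transcript XM_011022434.1 did not. The separated mRNAs had a median level of 6.77 FPKM among the higher and 4.96 FPKM among the lower ones, but some separations lay near 0. In LOC105125114 Ov2 at 0.0433 FPKM lay above Li3 at 0.04 FPKM. In LOC105140840 Ov2 at 0.0749 FPKM lay above Li1 at 0.0259 FPKM. In LOC105136308 Ov2 at 0.141 FPKM lay above La3 at 0.113 FPKM. The gaps of the separated mRNAs were narrow. Between the nearest broad and the nearest narrow library the median gap was 0.08 on the log2(FPKM + 1) scale for the higher mRNAs and 0.06 for the lower ones, and the widest was 0.63. The means of the groups ran in 1 direction from Li through La and Ov to Bo in 51 of the 110 higher and 16 of the 38 lower mRNAs.

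The plot of 8 mRNAs by library shows the form of these differences for 7 that separated the pools and for peroxidase 42, which did not.

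**Figure D1:**
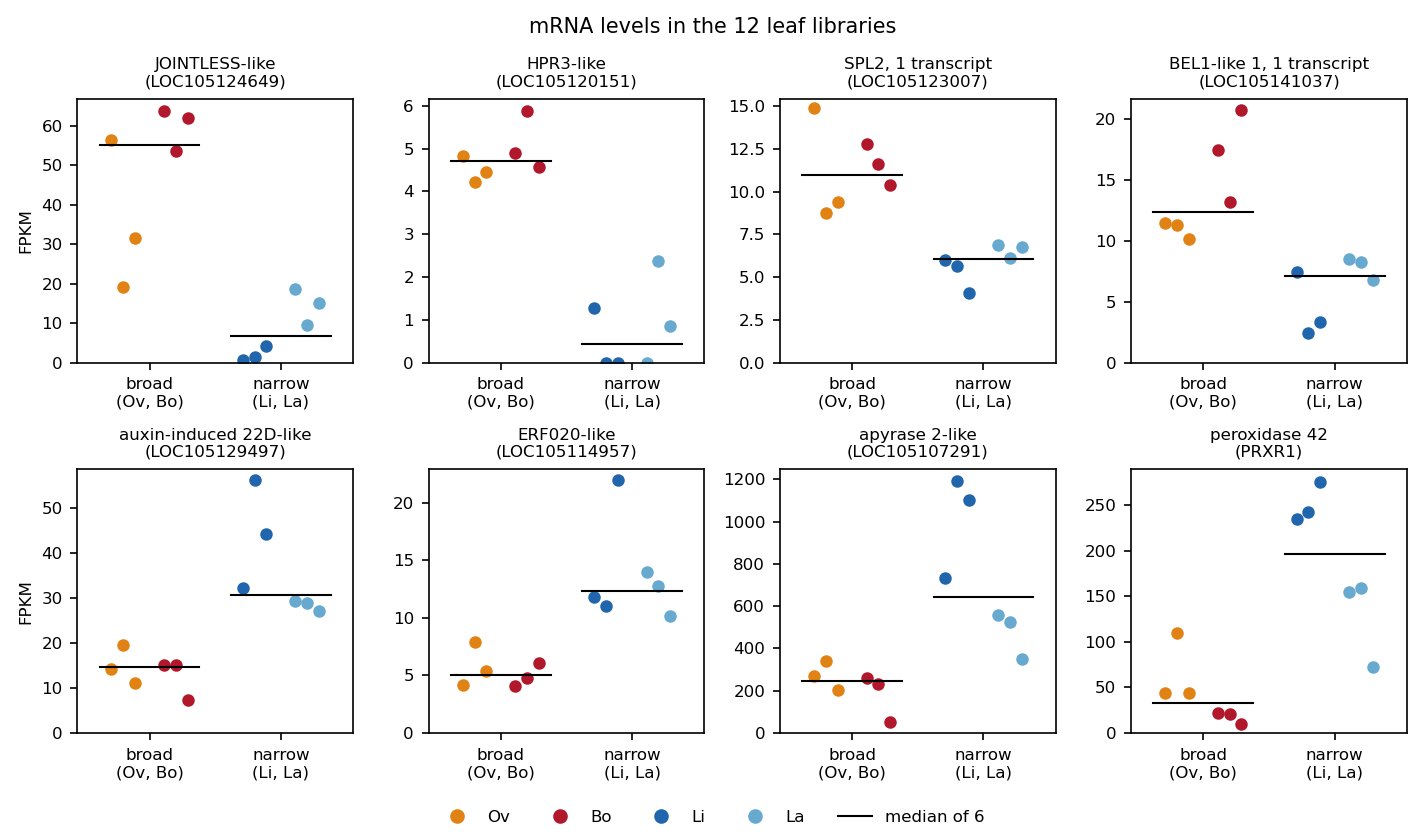
FPKM (y axis, from 0) of 8 mRNAs in 6 broad libraries (Ov and Bo) and 6 narrow libraries (Li and La). Each point is 1 library and each bar the median of 6. The pools do not overlap in 7 panels, and in peroxidase 42 Ov2 at 110 FPKM lies above La3 at 72.0 FPKM.

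A MADS-box gene had the largest difference among the separated mRNAs. JOINTLESS-like (LOC105124649, XM_011024751.1) belongs to the family of SVP, a repressor of flowering in *Arabidopsis*, and of tomato JOINTLESS, which is needed for the abscission zone of the flower stalk. Its lowest, median and highest values were 19.1, 54.9 and 63.6 FPKM in broad leaves, against 0.743, 6.74 and 18.6 FPKM in narrow leaves. Ov2 was the lowest broad library and La1 the highest narrow one, close to each other, and the Li libraries reached at most 4.08 FPKM. The log2 change was 2.81 (SE 0.58; limma adjusted p = 0.462).

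2 further JOINTLESS-like genes were higher on average but overlapped between the pools. LOC105124650 had 3.13, 22.5 and 51.6 FPKM in broad leaves, against 0.387, 1.32 and 5.33 FPKM in narrow leaves. It overlaps LOC105124649 in the RefSeq gene table, so the reads of these genes may have been divided between them. LOC105138623 had 42.5, 52.8 and 58.1 FPKM in broad leaves, against 7.17, 28.0 and 47.9 FPKM in narrow leaves. There the 3 La libraries (39.8 to 47.9 FPKM) were close to the Ov libraries (42.5 to 50.1 FPKM), and Li alone was low.

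Of the phase-change regulators, SPL2 separated the pools in both of its transcripts (LOC105123007). Many, but not all, SPL factors are targets of microRNA156. The transcript XM_011022433.1 had 8.74, 11 and 14.9 FPKM in broad leaves, against 4.06, 6.05 and 6.89 FPKM in narrow leaves, a log2 change of 0.82 (SE 0.17). The transcript XM_011022434.1 had 24.3, 33.6 and 59.2 FPKM in broad leaves, against 12.4, 18.7 and 24.0 FPKM in narrow leaves. In XM_011022434.1 Ov2 and Bo3, with 24.3 FPKM each, lay just above La1.

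Other SPL transcripts overlapped between the pools. SPL9 (LOC105131791), a factor of the adult phase in *Arabidopsis*, had 6.40, 24.4 and 30.7 FPKM in broad leaves, against 4.71, 5.30 and 9.44 FPKM in narrow leaves. Bo libraries held 24.2 to 29.7 FPKM, while Ov2 with 6.40 FPKM lay below La1 and La3. For SPL4 (LOC105129230) the values were 26.4, 39.9 and 82.7 FPKM in broad leaves, against 17.2, 23.1 and 31.2 FPKM in narrow leaves. The 13 tested transcripts with an SPL product name, from 6 genes, had changes above 0, with a median of 0.60 on the log2 scale. Among all mRNAs 17249 of 32309 had a change above 0. Of the 13, 8 were higher at an unadjusted p under 0.05, beside 6.79% of all mRNAs. The SPL7 transcripts XM_011016331.1 and XM_011016332.1 had the same change and p, so they do not count as separate observations. SPL3, known by its symbol alone, had a change of -0.35 and did not reach an unadjusted p under 0.05. These products are named only in a list that the study chose by a trend from Li to Bo in these same libraries, so their shared direction is no independent evidence.

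BEL1-like homeodomain protein 1 (LOC105141037), a partner of KNOX proteins, had 10.1, 12.3 and 20.7 FPKM in broad leaves, against 2.44, 7.11 and 8.51 FPKM in narrow leaves. Its change was 1.13 (SE 0.28) for this transcript, while the sum over its 5 transcripts overlapped between the pools. A transcript of TCP2-like (LOC105118623), of the TCP class that limits cell division in *Arabidopsis* leaves, was separated at a low level. It had 0.802, 0.954 and 1.43 FPKM in broad leaves, against 0.180, 0.376 and 0.637 FPKM in narrow leaves. The main TCP2-like transcript, with 14.1 to 21.7 FPKM in broad leaves and 11.2 to 20.6 FPKM in narrow leaves, had a change of -0.01 (SE 0.17).

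Parts of the transcription and chromatin machinery were among the separated mRNAs. A transcript of mediator subunit 15a-like (LOC105139948), which links activators to RNA polymerase, had 33.1, 37.7 and 43.4 FPKM in broad leaves. In narrow leaves it had 4.87, 20.4 and 31.1 FPKM, and La2 and La3, with 31.0 and 31.1 FPKM, came closest to Ov3. This gene has 15 transcripts in the files, and their sum was separated too, with 63.9 to 70.1 FPKM in broad leaves against 18.8 to 61 FPKM in narrow leaves. EZA1 (LOC105137984), a histone methyltransferase of the Polycomb group, was separated with a change of 0.74.

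The smallest p-values belonged to 2 mRNAs that were higher in broad leaves. HPR3-like (LOC105120151), a glyoxylate and hydroxypyruvate reductase that in *Arabidopsis* adds to photorespiration, had 4.21, 4.70 and 5.87 FPKM in broad leaves. In narrow leaves the median was 0.422 FPKM and the highest value 2.38 FPKM, with Li2, Li3 and La1 near 0. The change was 1.89 (SE 0.30; limma adjusted p = 0.462). LOC105136599, which has no product name here, had 5.46, 9.82 and 14.9 FPKM in broad leaves, against 0.211, 1.5 and 3.62 FPKM in narrow leaves (change 2.02, SE 0.33).

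Signalling and repair genes were also among the separated mRNAs. A transcript of a receptor-like kinase (LOC105118606) had 1.73, 2.31 and 3.38 FPKM in broad leaves, against 0.0536, 0.519 and 1.29 FPKM in narrow leaves. XRCC1-like (LOC105109648), a DNA-repair protein, had 4.00, 5.46 and 7.53 FPKM in broad leaves, against 0.674, 2.12 and 3.25 FPKM in narrow leaves. In both genes the sum over all transcripts overlapped between the pools.

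6 further mRNAs of the 12 with the largest positive changes have no product name or are uncharacterized. They are LOC105128865, LOC105132521, LOC105124790, LOC105128428, LOC105132178 and LOC105121999. Their changes lay between 1.13 and 2.34. In LOC105128865, with the change of 2.34, Ov1 (191 FPKM) and Bo3 (160 FPKM) stood far above the rest, while the other 4 broad libraries held 7.55 to 13.7 FPKM and the narrow libraries 2.50 to 6.66 FPKM.

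Among the mRNAs that were lower in every broad library, 2 encode Aux/IAA proteins, the repressors of auxin-responsive genes that auxin itself removes. Auxin-induced protein 22D-like (LOC105129497) had 7.36, 14.6 and 19.6 FPKM in broad leaves, against 27.2, 30.7 and 56.1 FPKM in narrow leaves. The change was -1.34 (SE 0.24; limma adjusted p = 0.462), and the 3 La libraries lay close together at 27.2 to 29.4 FPKM. IAA4-like (LOC105126184) was much lower in level, at most 0.540 FPKM in broad leaves and between 0.618 and 3.04 FPKM in narrow leaves.

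Other Aux/IAA mRNAs overlapped. Auxin-induced protein 22D (LOC105127802) had 7.40, 14.4 and 19.7 FPKM in broad leaves, against 17.2, 31.6 and 46.1 FPKM in narrow leaves, with only La3 inside the broad range. It is close in name and values to LOC105129497, and reads common to both would have been divided. IAA14-like (LOC105129987) went the other way, with 89.5, 170 and 199 FPKM in broad leaves, against 62.4, 79.7 and 156 FPKM in narrow leaves. Of 9 transcripts with an Aux/IAA product name, 7 were lower and 2 were higher at an unadjusted p under 0.05, beside the 3.32% and 6.79% of all mRNAs. Their names come from the list chosen on these libraries, so this tally is no evidence of direction. Of 5 further Aux/IAA transcripts known by symbol alone (IAA11, IAA14 and IAA19), 5 had a change below 0 and 1, IAA19, was lower at an unadjusted p under 0.05. Among all mRNAs 15060 of 32309 had a change below 0.

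ERF020-like (LOC105114957), an ethylene-responsive type of transcription factor, had 4.07, 5.07 and 7.90 FPKM in broad leaves, against 10.2, 12.3 and 22 FPKM in narrow leaves. Its change was -1.18 (SE 0.20; limma adjusted p = 0.462), and La3 was the nearest narrow library. Apyrase 2-like (LOC105107291) was the most abundant separated mRNA named here. Apyrases split extracellular or Golgi nucleotides, and in *Arabidopsis* APY2 is needed for growth. It had 53.5, 246 and 340 FPKM in broad leaves, against 348, 645 and 1190 FPKM in narrow leaves. La3, at 348 FPKM, lay just above Ov2 at 340 FPKM.

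A subunit of the V-type proton pump (LOC105137156), which acidifies the vacuole, had 0.160, 8.06 and 11.4 FPKM in broad leaves, against 12.6, 17.0 and 22.7 FPKM in narrow leaves. Its change was -1.78 (SE 0.57), and Bo1 and Bo2 were lowest with 0.466 and 0.160 FPKM. Calcium-binding CML15 (LOC105114161) had 2.40, 3.27 and 5.51 FPKM in broad leaves, against 5.52, 7.07 and 8.76 FPKM in narrow leaves. Here Ov2 with 5.51 FPKM and La2 with 5.52 FPKM nearly met.

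A transcript of the kinesin NACK1 (LOC105134483), which in tobacco drives growth of the new wall between daughter cells, was at most 1.78 FPKM in broad leaves. In narrow leaves it had 1.92, 3.04 and 4.68 FPKM. The sum over the 6 transcripts of this gene overlapped, with 3.60 to 20.1 FPKM in broad leaves and 8.21 to 14.6 FPKM in narrow leaves, so the separation was that of 1 transcript. The other 6 of the 12 largest negative changes, LOC105128902, LOC105118729, LOC105107900, LOC105121386, LOC105141558 and IAA4-like, lay between -0.89 and -1.66. Of these LOC105118729 was the highest, with 20.7, 31.6 and 42 FPKM in broad leaves, against 50.0, 59.6 and 144 FPKM in narrow leaves.

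The number of separated mRNAs was limited most by 1 library, La3. Leaving out a library cannot undo a separation, so the 148 remained in each such fit. Without La3 there were 681 mRNAs higher in every broad library (2.11%) and 334 lower (1.03%). Leaving out any other library gave 174 (without Li3) to 372 (without Ov2) separated mRNAs in all. La3 was the only library of the narrow pool whose mRNA profile was closer to the broad libraries. Its mean Spearman correlation over the tested mRNAs was 0.883 with the 6 broad libraries and 0.845 with the other 5 narrow libraries. For the other narrow libraries it was higher with the narrow pool, by 0.0072 (La2) to 0.0443 (Li2). In the broad pool Ov1, Ov2 and Bo1 were closer on average to the narrow libraries. These correlations run over transcripts and are a description. The deviations of La3 and Ov3 from their group means correlated at 0.662 over mRNAs, and the part of this pairing in the result was not tested.

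**Figure D2:**
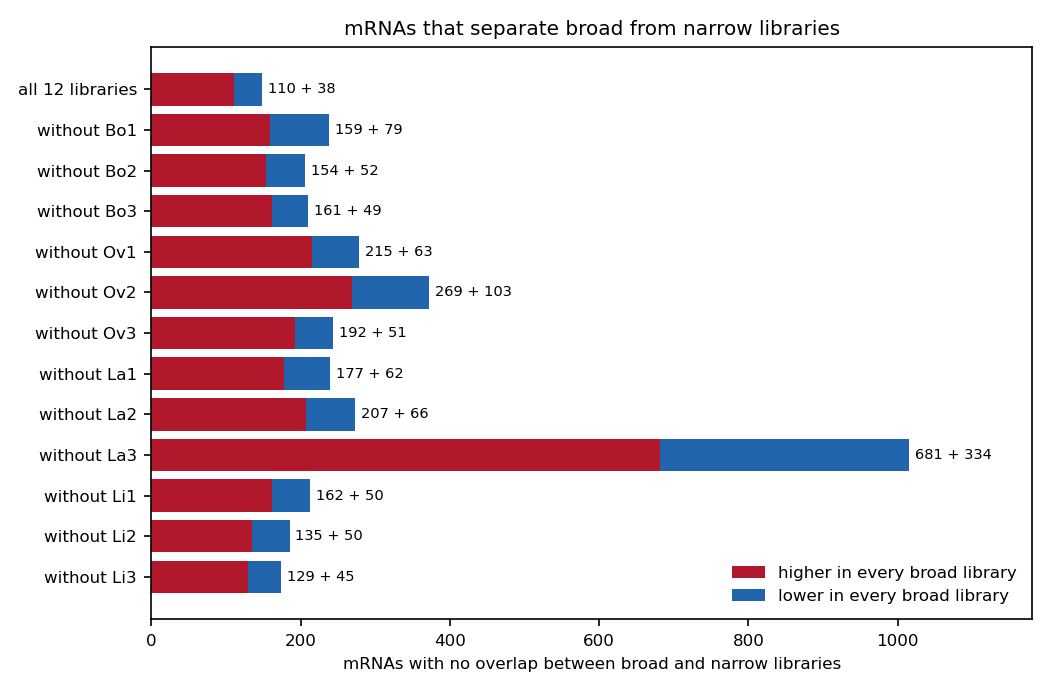
Number of mRNAs with no overlap between broad and narrow libraries (x axis), with all 12 libraries and with each library left out in turn. Red bars are mRNAs higher and blue bars mRNAs lower in every broad library. There are 110 and 38 with all libraries, and 681 and 334 without La3.

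Without La3, 8 mRNAs passed the limma test (0.0248%), and without La2 there were 2 (0.00619%), one of them HPR3-like. The 8 included XERICO, which in *Arabidopsis* raises abscisic acid and drought tolerance. XERICO (XM_011010788.1) had 61.2, 105 and 165 FPKM in broad leaves, against 17.9, 29.4 and 104 FPKM in narrow leaves. La3 held the 104 FPKM, and the next narrow library 39.0 FPKM. With all libraries the change was 1.54 (SE 0.36) and the adjusted p 0.462, which ranged from 0.0444 to 1 over the alternatives tried.

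The transcription factor CAULIFLOWER D-like (LOC105125295) is of the APETALA1 group of MADS-box factors, which give a meristem floral identity. It had 25.0, 38 and 53.3 FPKM in broad leaves, against 4.02, 10.3 and 35.6 FPKM in narrow leaves, where La3 alone passed 11.9 FPKM. Outer envelope pore protein 16-2 (LOC105114997), a channel of the plastid envelope, had 49.1, 73.2 and 103 FPKM in broad leaves, against 16.5, 24.9 and 67.6 FPKM in narrow leaves. In La3 it was 67.6 FPKM and in La1, the next, 30.7 FPKM.

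Alcohol dehydrogenase-like 3 (LOC105136841) was the only 1 of the 8 that was lower in broad leaves, at most 0.739 FPKM there and 1.65 to 6.41 FPKM in 5 narrow libraries, with La3 at 0.0186 FPKM. The others were LOC105136599 and LOC105132178, which also separated the pools with all libraries, and LOC105137431 and LOC105139389. In LOC105139389 La3, with 64.2 FPKM, lay above all broad libraries (26.1 to 54.8 FPKM). Bark storage protein B-like (LOC105118031), a nitrogen store of poplar, was called without La2. It had 1.14, 1.82 and 5.03 FPKM in broad leaves, against 1.02, 13.4 and 29.5 FPKM in narrow leaves, and La2 held the 1.02 FPKM.

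**Figure D3:**
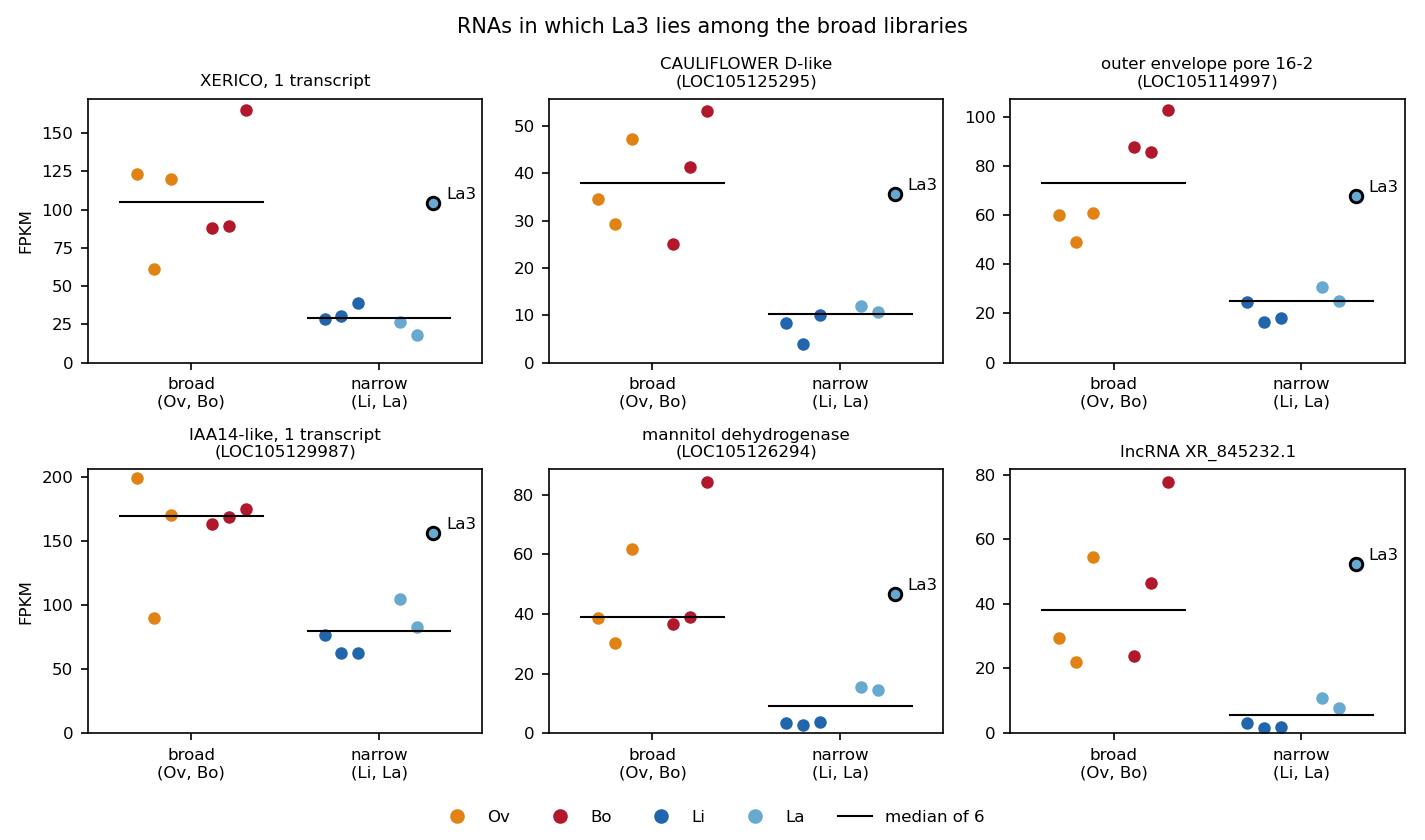
FPKM (y axis, from 0) of 5 mRNAs and 1 lncRNA in 6 broad and 6 narrow libraries, with La3 outlined. Each point is 1 library and each bar the median of 6. La3 lies within the broad range in each panel, for instance at 104 FPKM for XERICO against 17.9 to 39.0 FPKM in the other narrow libraries.

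The pooled change is the mean of the change of Bo against Li and that of Ov against La. When each of the 4 groups had its own mean, so that differences within a pool left the spread, limma called 28 mRNAs higher in broad leaves (0.0867%) and 7 lower (0.0217%). Only 6 of these 35 were among the 148 separated mRNAs, 17.1% of the 35 and 4.05% of the 148. A call here may rest on 1 of the groups.

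That was the case for most. In 19 of the 28 higher mRNAs every Bo library held over 3 times the value of every other library, ovate libraries included. Their Bo values were 1.94 to 34.0 FPKM, while 17 of the 19 stayed under 1 FPKM in all 9 other libraries. Pectate lyase P59 (LOC105126703), an enzyme that cuts pectin of the cell wall, had 2.86 to 4.02 FPKM in Bo, against 0.169 to 0.430 FPKM elsewhere. Beta-galactosidase 13-like (LOC105140921), which trims wall sugars, had 2.76 to 3.67 FPKM in Bo, against at most 0.417 FPKM elsewhere. A WDR12 transcript (LOC105107750), of ribosome assembly, had 3.89 to 9.45 FPKM in Bo, against at most 0.0383 FPKM elsewhere, but the sum over the 2 transcripts of the gene had a change of -0.49 between the pools.

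In 8 of the 28 every Li library lay below all others. They included the 3 JOINTLESS-like genes named above. For LOC105124649 the adjusted p was 0.0198 in this fit, with a range of 0.00911 to 1 over its 23 alternatives. Osmotin-like OSM34 (LOC105129023), a protein of defence and osmotic stress, had 43.5, 78.2 and 122 FPKM in broad leaves, against 3.91, 15.7 and 102 FPKM in narrow leaves. Li libraries had 3.91 to 6.32 FPKM and La libraries 25.0 to 102 FPKM.

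The probable mannitol dehydrogenase LOC105126294 had 30.1, 38.8 and 84.5 FPKM in broad leaves, against 2.60, 9.10 and 46.8 FPKM in narrow leaves, and again La3 was the highest narrow library. An E3 ubiquitin ligase (LOC105139970), an ABC transporter of the G family (LOC105110799) and LOC105124790 completed these 8. The ABC transporter had 5.30, 12.3 and 21.3 FPKM in broad leaves, against 1.4, 2.10 and 6.80 FPKM in narrow leaves, with the Bo libraries (16.3 to 21.3 FPKM) far above the Ov libraries (5.30 to 8.37 FPKM).

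Of the 7 mRNAs called lower, peroxidase 42 (PRXR1) was the most abundant. Class III peroxidases cross-link or loosen cell wall polymers. It had 10.1, 33.2 and 110 FPKM in broad leaves, against 72.0, 197 and 276 FPKM in narrow leaves. The change was -2.41 (SE 0.30 with 4 group means; adjusted p = 0.0254, 0.0113 to 1 over the alternatives). By group the means were 251 FPKM in Li, 129 FPKM in La, 65.9 FPKM in Ov and 17.7 FPKM in Bo.

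WER-like (LOC105130495), a MYB factor that in *Arabidopsis* sets epidermal cell fate, had 0.0393, 1.71 and 4.13 FPKM in broad leaves, against 3.04, 11.4 and 30.9 FPKM in narrow leaves. Ov1 and Ov2 lay above La3, and no other libraries overlapped. LOC105128902 was the only called mRNA of the 7 that also separated the pools. In LOC105120092, LOC105111078 and LOC105140344 every Li library lay above all others. In LOC105109114 every Bo library lay below all others, with 0.801 to 3.81 FPKM, and each Li library lay above the other groups.

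Leaving out a whole leaf group changed which mRNAs were called. Without La, 196 mRNAs passed (0.607%), and without Ov, 57 passed (0.176%), and these lists had 0 mRNAs in common. Without Li and without Bo limma called 0, with 784 and 2103 mRNAs at an unadjusted p under 0.05. In the same fits, of 32309 mRNAs, 4471 were separated without La, 1810 without Ov, 450 without Li and 720 without Bo. Fewer libraries have to be kept apart there, so these numbers are not comparable with the 148 for all libraries.

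The question whether the change of Bo against Li differed from that of Ov against La was tested directly. It did for 4 mRNAs (0.0124%), each with a limma adjusted p of 0.0402. The calls did not hold under other settings. With a pseudocount of 0.1, with a mean of at least 2 FPKM and with the library number as a fixed replicate block 0 mRNAs passed, as in 8 of 12 fits that left out 1 library. With La and Ov libraries of the same number as a replicate block 30 passed (0.0929%), and without Bo3 there were 185. LOC105126888 changed by 2.97 between Bo and Li and by 0.32 between Ov and La, a difference of 2.65 (SE 0.32). It had 6.49 to 7.77 FPKM in Bo and at most 0.582 FPKM in the other groups. LOC105142272 was alike, with a difference of 2.19 (SE 0.27).

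The other 2 of the 4 were high in Li alone. LOC105111078 had 8.11 to 23.7 FPKM in Li and 0.907 FPKM or less in all others, a difference of -4.24 (SE 0.52). LOC105140344, a mitochondrial tRNA 2-thiouridylase, which modifies transfer RNA, had 3.07 to 3.15 FPKM in Li and was near 0 in all others, a difference of -2.04 (SE 0.25). An FPKM near 0 that comes from divided reads is an estimate and does not show absence.

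**Figure D4:**
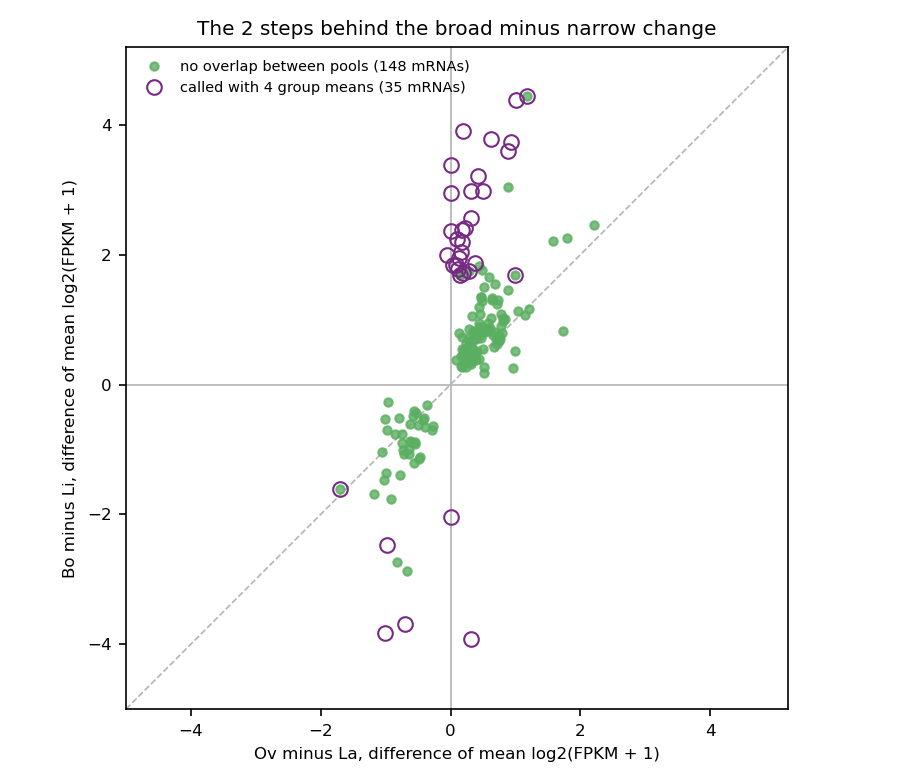
Change of Bo minus Li (y axis) against change of Ov minus La (x axis), both as differences of mean log2(FPKM + 1), for 148 mRNAs with no overlap between the pools (green) and 35 mRNAs called with 4 group means (open purple circles). The dashed line marks equal changes. Many circles lie near 0 on the x axis and far from 0 on the y axis, as for LOC105126888 with 0.32 and 2.97.

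The separated mRNAs differed from those calls in how the steps contributed. In the 110 higher ones the median change was 0.76 from Li to Bo and 0.44 from La to Ov. In the 38 lower ones it was -0.89 from Li to Bo and -0.64 from La to Ov. Separation requires the La to Ov step to be in the same direction, so this is a description.

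Genes of 15 lists, assembled by symbol, were examined for leaf development and leaf function. No member was called with 2 pool means, and none separated the pools. Members are given as counts at an unadjusted p under 0.05, to be read beside 6.79% higher and 3.32% lower among all mRNAs, and as medians beside the overall median of 0.03. In bulk leaf RNA fewer cells of a type and less RNA per cell cannot be told apart.

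Of the 44 transcripts of leaf polarity and blade outgrowth genes, 4 were higher and 0 lower, with a median of 0.07. TCP20, a factor of growth and division, had 30, 34.1 and 39.2 FPKM in broad leaves, against 19.3, 24.1 and 32.3 FPKM in narrow leaves (change 0.47, SE 0.15). The Li libraries were at 19.3 to 22.3 FPKM and La at 25.9 to 32.3 FPKM. AGO10, which protects the meristem and the upper leaf side, was the most abundant member. It had 31.9 to 65.1 FPKM in broad leaves and 38.5 to 46.6 FPKM in narrow leaves, a change of 0.05 (SE 0.16).

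Of 26 transcripts for phase change and flowering, 3 were higher and 0 lower (median 0.09). SPL8 had 17.4, 23.3 and 30.5 FPKM in broad leaves, against 11.2, 16 and 21.3 FPKM in narrow leaves. A low transcript of EMF1, which represses flowering, had 0.469, 0.845 and 1.94 FPKM in broad leaves, against 0.0748, 0.184 and 0.535 FPKM in narrow leaves. VRN5 and VIP4, the most abundant members, had changes of -0.01 and 0.06.

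Of 37 transcripts for light sensing and the clock, 3 were higher and 0 lower (median 0.10). They belonged to DET1 and SPA4, both repressors of light responses, and to PRR5, a part of the clock. DET1 had 4.96, 9.09 and 20.5 FPKM in broad leaves, against 4.00, 4.65 and 9.04 FPKM in narrow leaves for 1 of its transcripts, while the sum over its 3 transcripts had a change of 0.42. CRY1, a blue light receptor, had a change of 0.11 (SE 0.18).

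Photosynthesis genes of the nucleus leaned to narrow leaves. Of 33 transcripts, 30 had a change below 0, beside 15060 of 32309 among all mRNAs. At an unadjusted p under 0.05, 4 were lower and 0 higher. The median was -0.27, or -0.30 after upper-quartile scaling. The summed level of the list was 3190, 3680 and 4340 FPKM in broad leaves, against 3460, 4440 and 6820 FPKM in narrow leaves, so the pools overlapped. LHCA5, a light-harvesting protein of photosystem I, had 2.31, 3.52 and 8.17 FPKM in broad leaves, against 3.14, 10.8 and 27.4 FPKM in narrow leaves. PSBW and PSAL, the most abundant members, had changes of -0.33 (SE 0.25) and -0.17 (SE 0.19).

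Division genes showed no excess at an unadjusted p under 0.05. Most of their transcripts had a change below 0, beside 15060 of 32309 among all mRNAs. Of 37 transcripts for DNA replication, 25 had a change below 0 (median -0.17) and none had an unadjusted p under 0.05. Of 34 for mitosis, 24 had a change below 0 (median -0.16), with 2 higher and 1 lower. CDKB2;1, a kinase of the G2 to M step, had 10.8 to 78.7 FPKM in broad leaves and 30.6 to 103 FPKM in narrow leaves, a change of -0.90 (SE 0.55). Ov3, Bo3 and La3, with 11.2, 10.8 and 30.6 FPKM, were the lowest libraries, while Li3 held 98 FPKM.

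Of 39 cell wall transcripts, 1 was higher and 2 lower (median -0.16). EXPA15, an expansin that loosens the wall, had 15.3 to 127 FPKM in broad leaves and 59.1 to 164 FPKM in narrow leaves (change -0.57, SE 0.46). Of 13 phenylpropanoid and flavonoid transcripts, PRX52 was higher, and PRXR1 and CCR2 were lower. CCR2, a lignin pathway reductase, had 0.415, 0.612 and 0.915 FPKM in broad leaves, against 0.843, 2.19 and 3.61 FPKM in narrow leaves, with La3 alone inside the broad range.

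Hormone lists stayed near the overall median. Of 27 auxin transcripts, ARF2 was higher and SAR1 and IAA19 were lower (median -0.02). ARF2, which represses growth by auxin, had 88.8 to 101 FPKM in broad leaves and 55.9 to 111 FPKM in narrow leaves, where La3 held the 111 FPKM and the next library 80.8 FPKM. Of 26 transcripts for gibberellin, brassinosteroid and cytokinin, 0 were higher and 1 lower (median 0.03). This was a transcript of RR5, a cytokinin response regulator.

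Of 6 WRKY transcripts by symbol, factors of defence and ageing, 3 were higher and 0 lower, with a median of 0.59. WRKY51 had 3.26, 9.71 and 28.9 FPKM in broad leaves, against 0.925, 2.75 and 9.63 FPKM in narrow leaves (change 1.41, SE 0.49). WRKY11 and WRKY22, the most abundant, had changes of 0.32 and -0.04. Of 25 heat and drought transcripts, 0 were higher and 2 lower (median 0.21). Of 15 for stomata and epidermis, 0 were higher and 2 lower (median -0.09). SDD1, a protease that limits stomatal number in *Arabidopsis*, had 0.0873, 1.05 and 3.93 FPKM in broad leaves, against 1.38, 5.16 and 5.63 FPKM in narrow leaves.

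The 6 xylem and phloem transcripts had 0 members under an unadjusted p of 0.05, and the summed level of the list was 3.25 to 19.3 FPKM in broad leaves and 7.65 to 13.0 FPKM in narrow leaves. The 2 remaining transcripts tested under flower-organ symbols were SEP1, lower in broad leaves at an unadjusted p under 0.05, and SEP2 (median 0.02). The product of SEP1 is a chloroplast stress enhanced protein, so this symbol marks no flower organ.

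**Figure D5:**
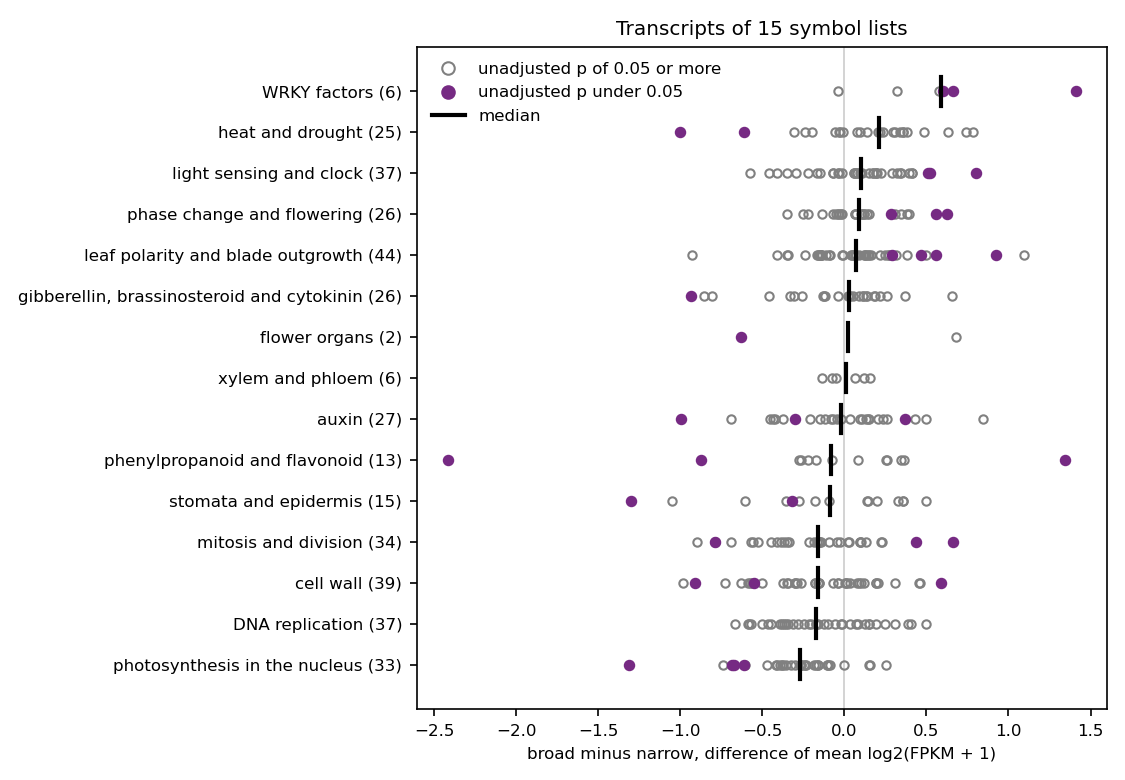
Broad minus narrow difference of mean log2(FPKM + 1) (x axis) for the tested transcripts of 15 gene lists, with the number of transcripts in brackets. Each circle is 1 transcript, filled at an unadjusted p under 0.05, and each bar is the median of the list. The medians run from -0.27 for nuclear photosynthesis genes to 0.59 for WRKY factors, and no transcript passed after adjustment.

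Families named through the study's own list are given as a description. That list was chosen by trend on these libraries, so the tallies and medians below are no evidence of direction. Among all mRNAs 15060 of 32309 had a change below 0. Of 52 transcripts for cytosolic ribosomal proteins 46 had a change below 0 (median -0.62), and their summed level was 3300, 6230 and 7330 FPKM in broad leaves, against 3840, 8980 and 12200 FPKM in narrow leaves. Of 9 aquaporin transcripts 7 were below 0 (median -0.82). Both phenylalanine ammonia-lyase transcripts, for the entry into phenylpropanoids, were below 0. LOC105142552 had 68.8, 224 and 362 FPKM in broad leaves, against 210, 548 and 1050 FPKM in narrow leaves. YABBY 5-like (LOC105122619) had 16.2, 21.1 and 42.8 FPKM in broad leaves, against 26.4, 41.3 and 93.1 FPKM in narrow leaves, both pools overlapping. Growth-regulating factor 10-like (LOC105132203) had 3.37, 12.2 and 15.9 FPKM in broad leaves, against 10.9, 18.2 and 35.8 FPKM in narrow leaves.

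A gibberellin-regulated protein 1-like mRNA (XM_011046794.1) ranged widely. It had 227, 326 and 1270 FPKM in broad leaves, against 5.78, 62.7 and 718 FPKM in narrow leaves, with La3 at 718 FPKM and the next narrow library at 155 FPKM. The change was 2.93 (SE 0.97) and did not pass.

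For lncRNAs the limma test called 0 of 1391 (0.0%), and the smallest adjusted p was 0.309. Before adjustment 124 with p under 0.05 were higher in broad leaves (8.91%) and 39 lower (2.8%). The median change over all lncRNAs was 0.13, and 0.01 after upper-quartile scaling, so the direction of small lncRNA changes is relative to this shift. Higher in every broad library were 7 lncRNAs (0.503%), and 1 was lower in every broad library (0.0719%). After upper-quartile scaling these numbers were 4 and 2, with 4 of the 8 lncRNAs still separated, and the lncRNAs with an unadjusted p under 0.05 split into 91 higher and 64 lower.

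The lncRNA lower in every broad library was XR_844356.1 (LOC105136503), with 0, 2.93 and 8.04 FPKM in broad leaves, against 9.12, 13.0 and 18.0 FPKM in narrow leaves. The Ov libraries had 4.92 to 8.04 FPKM and the Bo libraries at most 0.942 FPKM. Its change was -2.05 (SE 0.51; adjusted p = 0.309). With 4 group means it was the only lncRNA called lower (0.0719%; adjusted p = 0.00105, from 0.001 to 0.935 over the alternatives). The only lncRNA called higher in that fit (0.0719%), XR_843136.1, was high in Bo alone, with 4.75 to 5.16 FPKM there and values near 0 in the other 9 libraries.

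Of the 7 higher lncRNAs, XR_843592.1 had the smallest p. It had 0.819, 1.05 and 2.38 FPKM in broad leaves, against a highest value of 0.400 FPKM in narrow leaves (change 0.83, SE 0.18). TCONS_00005067, a transcript that the authors assembled and that overlaps an annotated mRNA, had 2.51, 3.53 and 7.45 FPKM in broad leaves, against 0.610, 1.11 and 2.14 FPKM in narrow leaves. TCONS_00053907, XR_839273.1, XR_839997.1, XR_841714.1 and XR_844327.1 had changes of 0.55 to 0.77, and of these XR_839273.1 alone was separated after scaling.

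XR_845232.1 had 22, 38 and 77.8 FPKM in broad leaves, against 1.63, 5.52 and 52.2 FPKM in narrow leaves. La3 held the 52.2 FPKM and the next narrow library 10.8 FPKM. Its change was 2.40 (SE 0.65), with an adjusted p of 0.309, and it was called without La3. XR_839832.1 was called without Ov2, which held 0 FPKM against 1.64 to 7.02 FPKM in the other broad libraries. XR_842452.1, among the 4 lncRNAs with the smallest p, overlapped by 1 pair of libraries, Ov2 at 2.18 FPKM and La3 at 2.29 FPKM.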

How the data were processed

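The deposited FPKM values of mRNAs and lncRNAs are estimates the authors made by aligning strand-specific reads to transcripts with Bowtie2 and dividing reads with eXpress. Isoforms and near copies therefore share reads, and the read depth behind a value is unknown. lncRNAs without annotation were assembled by the authors with Cufflinks after TopHat2 alignment. The circRNA files were not used here.

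Groups came from the sample titles. RNAs with a mean of at least 0.5 FPKM were tested as log2(FPKM + 1) with limma 3.58.1 in R 4.3.3 (2 pool means, trended variances, two-sided, Benjamini-Hochberg adjustment within mRNAs and within lncRNAs, threshold 0.05), because a count model, as the study used, needs read counts. Changes are broad minus narrow and understate those of low RNAs. p-values measure the spread between these libraries. The fits were tested on simulated data.

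Symbols were found for 49440 of 49676 mRNAs in a RefSeq gene table of a later version of the assembly, from which no position is given. Product names came from the study's supplementary list of trending mRNAs, which covers 2552 mRNAs by gene. Families planned by protein signature were taken from these product names, since no protein table was used here. As no RNA was called, the named mRNAs are the 4 with the smallest p, the 4 with the smallest p and a product, and the 12 largest changes in each direction among separated mRNAs, with 1 transcript a gene. For lncRNAs they are the 4 with the smallest p. Others were named after their values were seen. Members and lists were chosen with earlier results of these data known.

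La and Ov libraries of the same number deviated together from their group means (correlations of 0.246, 0.641 and 0.662 for numbers 1 to 3), which the data show and no label explains. Ov and Bo libraries did so for numbers 1 and 3 (0.321 and 0.289) and hardly for number 2 (0.0407), and Li and Bo libraries did not (-0.21 to 0.0657). Alternatives were a pseudocount of 0.1, no filter, a mean of at least 2 FPKM, upper-quartile scaling, 4 group means, replicate blocks, sums by gene, and each group or library left out.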

Additional observations from a re-analysis of the deposited data

Results flagged for a closer look

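For 4 mRNAs the change of Bo against Li differed from that of Ov against La by a test of the difference itself (limma, adjusted p = 0.0402 each). With the library number as a fixed replicate block 0 mRNAs passed (smallest adjusted p 0.1443), as with a pseudocount of 0.1 and with a mean of at least 2 FPKM. The differences were -4.24 for LOC105111078 (XM_011006321.1), 2.65 for LOC105126888 (XM_011027910.1), -2.04 for LOC105140344 (XM_011047138.1) and 2.19 for LOC105142272 (XM_011049824.1). LOC105111078 and LOC105140344 were high in Li alone, and LOC105126888 and LOC105142272 in Bo alone.

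In 5 of 58 pools of 6 libraries, over the 29 RNAs named by rule, 1 library stood apart from the other 5. Its gap was over the 95% limit, which chance passes in about 1 in 20 pools of unselected, independent values. These RNAs were selected on the same values, so that rate is no measure of an excess here. ERF020-like (XM_011011697.1) reached 22 FPKM in Li3, against 14.0 FPKM in the next narrow library. LOC105107900 (XM_011001987.1) had 16.7 FPKM in La1, against 11.1 FPKM in the next. LOC105132178 (XM_011035513.1) had 1.07 FPKM in La3, against 0.245 FPKM in the next narrow library. In the broad pool LOC105128428 (XM_011030090.1) had 5.19 FPKM in Ov3, against 2.66 FPKM in the next, and the lncRNA XR_843592.1 had 2.38 FPKM in Bo3, against 1.16 FPKM in the next. Each of these 5 RNAs had no overlap between the pools with all libraries included. For the mRNAs this was a condition of the lists of largest changes that named them. It therefore does not show that the outlying library left the result intact.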

How the results depend on the processing

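Another pseudocount, no filter, a higher filter, upper-quartile scaling and both replicate blocks (numbers as a fixed block and La and Ov pairs as a random one) left 0 mRNAs and 0 lncRNAs called, and sums by gene, run for mRNAs, left 0. With unadjusted p-values the numbers were 3268 mRNAs and 163 lncRNAs. With 4 group means 35 mRNAs and 2 lncRNAs were called, without La 196 and 5, and without Ov 57 and 9. With 1 library left out the mRNA calls ranged from 0 to 8 and the lncRNA calls from 0 to 1.

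The 148 separated mRNAs became 450 without Li, 4471 without La, 1810 without Ov and 720 without Bo, since fewer libraries have to be kept apart, and 174 to 1015 with 1 library left out. After upper-quartile scaling 95 of the 148 remained separated.

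The 4 mRNAs whose changes differed between Bo against Li and Ov against La became 0 with a pseudocount of 0.1, 0 with a mean of at least 2 FPKM, 57 without a filter, 0 with the numbers as a replicate block, 30 with La and Ov pairs as a replicate block, 2435 at an unadjusted p under 0.05, and 0 to 185 with 1 library left out. The cause was not tested.

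No named RNA reversed, and 9 of 29 passed in at least 1 alternative. These 29 were chosen by p or by change in the same values, so this does not measure how robust they are. How many of all RNAs passed in at least 1 alternative was not counted. Without La alone 196 of 32309 mRNAs passed (0.607%). The depth behind each FPKM value is unknown, so no counting error can be given for low RNAs.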
